A study of Mus musculus with 4 samples.

Results

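The 1581 regions described here were open between genes in WT macrophages. None was in the peak lists of conditional knockout (cKO) macrophages, in which the genes for histone H3.3 were targeted. They were selected on the peak calls of 4 ATAC-seq libraries. Peaks that shared 1 bp or more were merged into 71243 union regions, of which 69349 lay on autosomes and 21010 of those were intergenic. A region became a member if both WT libraries had a peak in it, neither cKO library had one, and its centre lay outside every annotated gene body and every promoter, the stretch from 1 kb before a transcription start site (TSS) to 100 bp after it. The members spanned 0.547 Mb in all. Of the 15093 autosomal intergenic regions called in both WT libraries, 10.5% were members, and 9.6% of all 52848 autosomal regions called in both WT libraries were absent from both cKO lists. Because presence and absence of a peak chose the members, their loss in cKO is a description and was not tested.

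The libraries came from bone marrow-derived macrophages (BMDMs), grown for 6 to 8 days in L929-conditioned medium, with 2 biological replicates for each genotype. Both genotypes carried H3f3a fl/fl and H3f3b fl/fl, floxed alleles of the genes for H3.3 (exon 2 of H3f3a, exons 1 to 4 of H3f3b), on a C57BL/6 background. The cKO mice also carried LysM cre/cre, a Cre inserted at Lyz2 that is active in myeloid cells. The WT mice had no Cre, so that Cre and the loss of H3.3 cannot be told apart. The paper reports that deletion of H3f3b varied among cKO samples, from partial to complete, and its extent in these libraries is unknown. The study used male and female mice of 8 to 10 weeks, and the labels used here give neither sex nor age for a library. Peaks numbered 55742 and 64939 in the WT lists, and 51955 and 60884 in the cKO lists. Read depth is unknown. A peak lay at the promoter of 9 of 10 macrophage marker genes in all 4 libraries, the exception being Spi1 with none. All 5 fibroblast markers and 4 of 5 T cell markers had no promoter peak in any library, while Cd2 had a peak in WT replicate 2. Ms4a1 of 5 B cell markers, S100a8 of 5 neutrophil markers, 2 of 5 erythroid markers and 2 of 5 dendritic cell markers had a peak in every library. Of the other neutrophil markers, the Ly6g promoter was called in both cKO libraries and in neither WT library, and the Camp promoter in both WT libraries and in cKO replicate 2. The part of other cell types in the member list was not tested.

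H3.3 is the histone H3 variant that is placed into chromatin outside of DNA replication, at active genes and enhancers among other sites. Many intergenic open sites in macrophages are enhancers. They are opened by PU.1, the factor that specifies the myeloid lineage, together with partners such as C/EBP, RUNX, IRF and AP-1 proteins, while NF-kB acts at many of them during inflammatory signalling. CTCF marks insulators and loop anchors.

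Sequence was not used to choose the members. The strongest member, near Tmem72, matched none of the 13 motifs searched, and neither did the strong members near Csgalnact2, Mrps6, Slc7a11 and Rfx8. The 6 strongest members to be printed, each picked for a PU.1, C/EBP or RUNX match, are given first. They are shown as 201 bases around the WT summit of the mm10 plus strand from RefSeq. Each is named after the gene with the nearest protein-coding TSS, which is not shown to be its target. Capitals mark matches, on either strand, to PU.1 (GAGGAAGT), C/EBP (TTGCNNAA), RUNX (AACCACA) or NF-kB.
Srsf5 member, chr12:80885442-80885642: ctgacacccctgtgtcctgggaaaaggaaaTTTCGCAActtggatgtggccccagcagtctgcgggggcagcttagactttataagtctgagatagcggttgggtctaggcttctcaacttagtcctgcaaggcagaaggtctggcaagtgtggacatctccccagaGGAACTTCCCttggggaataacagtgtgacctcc
Arhgap9 member, chr10:127318159-127318359: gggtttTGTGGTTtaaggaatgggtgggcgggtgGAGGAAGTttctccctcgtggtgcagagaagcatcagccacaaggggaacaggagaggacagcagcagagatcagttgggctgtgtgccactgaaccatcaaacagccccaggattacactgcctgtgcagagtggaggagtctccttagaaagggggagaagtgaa
4933412E24Rik member, chr15:60080287-60080487: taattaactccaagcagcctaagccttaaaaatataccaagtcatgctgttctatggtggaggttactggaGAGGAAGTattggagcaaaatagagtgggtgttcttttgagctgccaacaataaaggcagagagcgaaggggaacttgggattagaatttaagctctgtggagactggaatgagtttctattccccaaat
Armc2 member, chr10:42122959-42123159: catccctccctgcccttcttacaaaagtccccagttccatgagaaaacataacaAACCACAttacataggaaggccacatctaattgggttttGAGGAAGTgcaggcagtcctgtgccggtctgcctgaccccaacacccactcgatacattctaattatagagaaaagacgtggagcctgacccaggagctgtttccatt
Ensa member, chr3:95635702-95635902: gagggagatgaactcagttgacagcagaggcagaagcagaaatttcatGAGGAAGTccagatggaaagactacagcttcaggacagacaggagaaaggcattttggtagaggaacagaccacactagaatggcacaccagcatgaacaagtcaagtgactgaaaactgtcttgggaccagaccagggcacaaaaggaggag
P2rx4 member, chr5:122704653-122704853: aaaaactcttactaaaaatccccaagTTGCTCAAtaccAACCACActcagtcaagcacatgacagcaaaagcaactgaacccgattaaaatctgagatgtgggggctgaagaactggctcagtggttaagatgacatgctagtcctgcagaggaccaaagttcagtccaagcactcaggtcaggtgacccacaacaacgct
The Srsf5 member held a C/EBP and an NF-kB match, and the Arhgap9 and Armc2 members paired PU.1 with RUNX. A C/EBP and a RUNX match stood close together in the P2rx4 member. The 4933412E24Rik and Ensa members had PU.1 alone among the marked motifs.

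The next sequences come from a pair of immune loci. They were picked with their values in view, since they are among the 22 members with both a C/EBP and an NF-kB match. Il10 encodes an anti-inflammatory cytokine, and Klf6 a zinc finger factor of inflammatory macrophages.
Il10 member, chr1:131015456-131015656: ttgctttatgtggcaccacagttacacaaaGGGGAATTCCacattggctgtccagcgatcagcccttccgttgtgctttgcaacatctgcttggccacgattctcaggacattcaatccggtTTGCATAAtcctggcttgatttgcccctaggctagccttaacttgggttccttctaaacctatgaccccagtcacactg
Klf6 member, chr13:5789397-5789597: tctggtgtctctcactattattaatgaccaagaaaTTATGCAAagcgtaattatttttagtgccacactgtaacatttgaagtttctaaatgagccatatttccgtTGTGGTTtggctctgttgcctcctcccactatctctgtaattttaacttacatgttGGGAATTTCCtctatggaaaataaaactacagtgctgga
Both held C/EBP and NF-kB, and the Klf6 member a RUNX match as well.

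The members were weak sites in WT. Peak area, the peak caller's area under the significance curve, was ranked within each list as a percentile, so that 0 is the weakest peak of a list and 100 the strongest. The members' median percentile was 15.0 in WT replicate 1 and 25.1 in WT replicate 2. The 12238 intergenic regions called in all 4 libraries had WT medians of 51.2 and 58.0, while their cKO medians were 48.6 and 55.7. The 1043 intergenic regions gained in cKO, called in both cKO lists and neither WT list, were as low in cKO as the members were in WT, with medians of 14.1 and 26.0. Members ranked higher in replicate 2 than in replicate 1 in 83.9% of cases, and across members the WT percentiles had a Pearson r of 0.785 and a Spearman coefficient of 0.726 (n = 1581, a description across regions of a shared pair of libraries). Members were also narrower, with a median width of 321 bp against 513 bp. Almost all, 1578, held a single peak in each WT list.

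**Figure D1:**
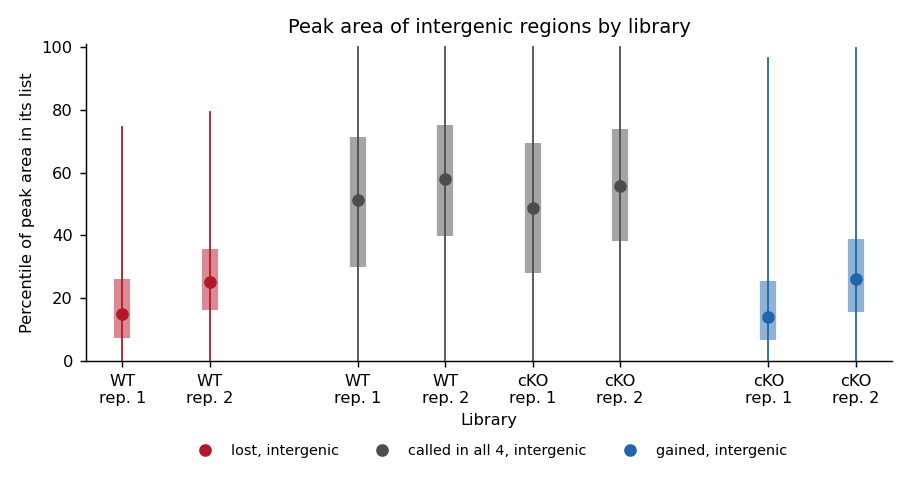
Percentile of the peak area within its own list, by library and replicate, for members (lost, intergenic), intergenic regions called in all 4 libraries and intergenic regions gained in cKO. Points are medians, thick bars the middle 50% and thin lines the full range over regions. Members have medians of 15.0 and 25.1 in the WT lists, while regions called in all 4 libraries have medians from 48.6 to 58.0.

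The share of regions lost fell with WT strength. When the 15093 intergenic WT regions were split into 4 equal strength bins by mean WT percentile, 28.7% of bin 1, the weakest, were members (1082 regions, Wilson 95% interval 27.2 to 30.1%). In bin 2 the share was 10.7% (403 regions), in bin 3 2.46% (93 regions) and in bin 4 0.0795% (3 regions). All Wilson intervals here cover counting error only, since regions of the same libraries are not replicates. The share lost was 10.5% (10.0 to 10.97%) for intergenic sites and 11.97% (11.6 to 12.4%) for intronic ones. The share was 7.81% for exons and 2.70% for promoters.

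**Figure D2:**
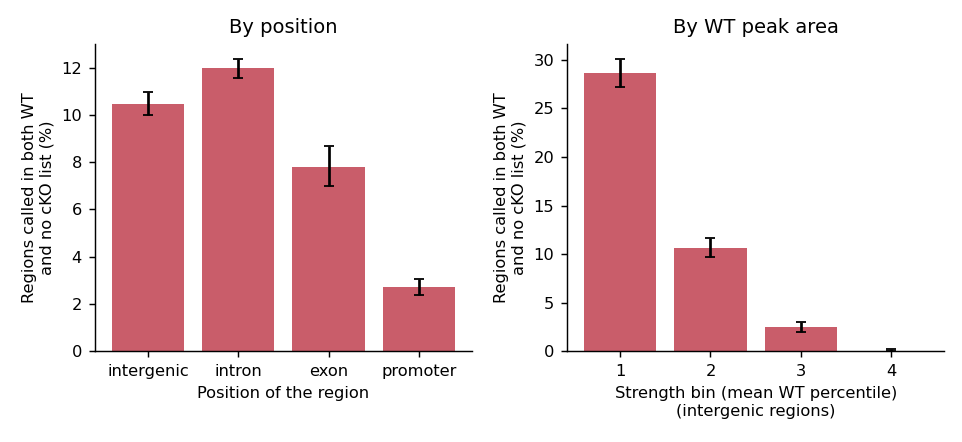
Share of autosomal regions called in both WT libraries that had no peak in either cKO library, by position (left) and, for intergenic regions, by strength bin of the mean WT percentile (right, bin 1 is weakest). Bars start at 0 and error bars are Wilson 95% intervals. The intergenic share was 10.5% and fell from 28.7% in bin 1 to 0.0795% in bin 4.

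How many regions count as lost depended on which library was asked. Besides the members, 1177 intergenic WT regions kept a peak in cKO replicate 2 alone and 97 in cKO replicate 1 alone, and 12238 (81.1%) kept peaks in both. Comparing same-numbered replicates, 18.9% of the 15261 intergenic regions of WT replicate 1 were absent in cKO replicate 1, and 17.8% of 18292 in replicate 2. In the opposite direction, 14.7% and 14.3% of the intergenic regions of the cKO libraries were absent from WT. Without cKO replicate 2 the member count was 2759, and without WT replicate 1 it was 3135. An exact permutation test of 2 against 2 libraries cannot give a two-sided p below 0.333, and these counts were not tested.

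The calling limit ran through the weakest members. Every list ended just above an area of 200. Among the members closest inside was the Zcchc4 member (chr5:52774367-52774587), with areas of 200.11 and 205.5 in WT replicates 1 and 2. A region near Tra2b (chr16:22330987-22331261) was the closest outside, with WT areas of 297.3 and 371.7 and an area of 200.16 in cKO replicate 2. In all, 133 members (8.41%) had a WT area under 210. Of the 1274 intergenic regions called in both WT lists and in a single cKO list, 116 (9.11%) had a cKO area under 210. A lost region is one below this limit and was not shown to be closed. Few members lay close to a cKO peak. The nearest cKO peak was a median of 4719 bp away, 25 members (1.58%) had one within 200 bp, and 1373 members had none within 1 kb.

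The strongest members were found at genes of many functions, with no peak in either cKO list. The member near Tmem72 (chr6:116735273-116735785), 18.6 kb upstream of the TSS, was the strongest, at percentiles 74.5 and 79.2. It was followed by the members near Srsf5, a splicing factor (70.0 and 70.6), and Arhgap9, a GTPase-activating protein (68.2 and 69.6). These were the 3 members of strength bin 4. Both WT libraries placed them well above the median of their lists, yet the nearest cKO peaks were 1335, 7151 and 4751 bp away. The next 9 by mean percentile lay near Csgalnact2, Mrps6, Fam20c, Prss23, Slc7a11, Fchsd2, Rfx8, 4933412E24Rik and Armc2, with mean WT percentiles from 63.3 to 68.6. Slc7a11 encodes the cystine-glutamate exchanger, and its member stood 251 kb upstream with percentiles of 63.0 and 67.7. Of these 12 members, 11 lay upstream of their nearest TSS, as did 70.8% of all members and 67.7% of intergenic regions called in all 4 libraries.

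PU.1 and C/EBP matches were present at members at shares close to those of intergenic sites that stayed open. Within 100 bp of the summit, 207 members (13.1%, 11.5 to 14.8%) had a PU.1 match, against 13.7% of intergenic regions called in all 4 libraries, 9.59% of gained regions and 11.1% of all autosomal union regions. Windows 1 kb away from the members' summits had a PU.1 match in 1.27% of cases. The members' PU.1 matches clustered at the summit, with 50.9% of them within 25 bp. The PU.1-IRF composite (GGAA and GAAA separated by 2 bases), bound by PU.1 together with IRF4 or IRF8, was present in 7.21% of members, 7.12% of regions called in all 4 libraries and 2.68% of gained regions. C/EBP had the highest share of the 13 motifs searched, at 16.8% of members (15.0 to 18.7%) against 14.6% of regions called in all 4 libraries, with 8.60% in windows 1 kb away. That difference of 2.13 percentage points (Newcombe 95% interval 0.263 to 4.15) was 0.536 points without WT replicate 1 and 0.933 points without cKO replicate 2. RUNX was matched in 8.86% of members and 9.69% of regions called in all 4 libraries, and MAF (TGCTGAC or TGCTGAT) in 8.54% and 10.1%.

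AP-1 and CTCF matches were scarcer at members than at intergenic sites called in all 4 libraries. AP-1 (TGACTCA or TGAGTCA), bound by FOS, JUN and ATF family dimers, was found in 109 members (6.89%, 5.75 to 8.25%), in 17.6% of intergenic regions called in all 4 libraries, and in 22.8% of gained regions. The share was 13.4% over all autosomal union regions and 3.57% in windows 1 kb from the members' summits. Read from the motif, 4.56% of the 2388 intergenic WT regions with an AP-1 match were members, beside 10.5% of all. CTCF was matched in 36 members (2.28%, 1.65 to 3.14%), beside 0.127% of windows 1 kb from their summits. It was matched in 5.16% of regions called in all 4 libraries, 7.57% of gained regions and 4.14% of all union regions. Lost regions in introns, which the rule left out, had similar shares, at 7.87% for AP-1, 1.46% for CTCF and 13.1% for PU.1. The AP-1 difference from regions called in all 4 libraries was -10.7 percentage points (-12.1 to -9.23) and lay between -10.4 and -9.59 when each library was left out in turn. The CTCF difference was -2.89 points (-3.64 to -1.95), -0.988 without WT replicate 1 and -1.42 without cKO replicate 2, and -0.814 (-1.46 to 0.220) when peaks up to the median area of each list were dropped.

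**Figure D3:**
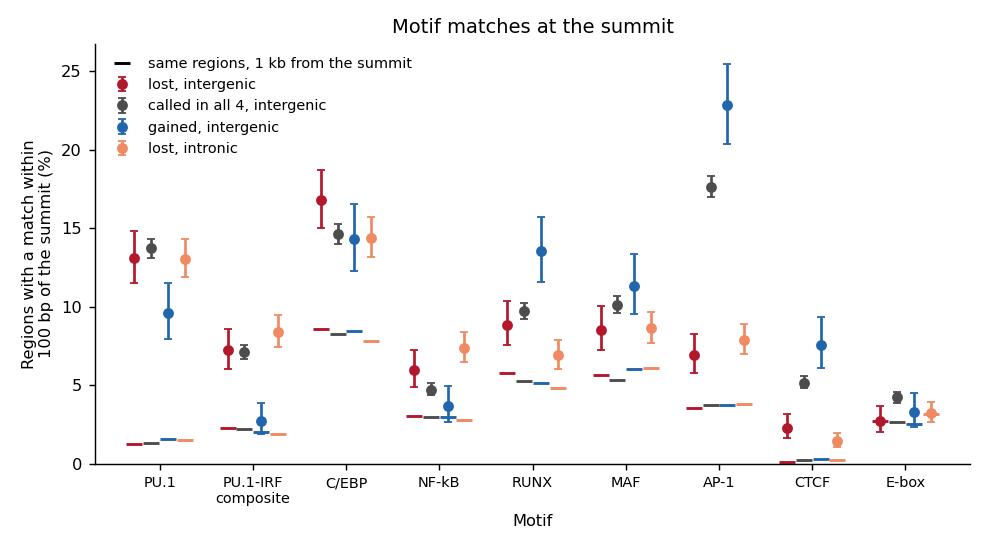
Share of regions with a motif match within 100 bp of the summit, for members (lost, intergenic), intergenic regions called in all 4 libraries, gained intergenic regions and lost intronic regions. Points carry Wilson 95% intervals and dashes give the share in windows 1 kb from the summit of the same regions. AP-1 was matched in 6.89% of members, 17.6% of regions called in all 4 libraries and 22.8% of gained regions.

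Since motif content changes with peak strength, the shares were also set side by side within strength bins. In bin 1, AP-1 was matched in 7.58% of 1082 members and 15.5% of 1982 regions called in all 4 libraries, and in bin 2 in 5.71% of 403 members against 16.3%. CTCF was matched in 3.33% of members and 12.3% of regions called in all 4 libraries in bin 1. In bin 2 it was matched in 0 of 403 members, which allows up to 0.944% (Wilson), against 7.91%. C/EBP had higher shares at members in bins 1 and 2, and PU.1 and the PU.1-IRF composite in bin 1. In bin 2 the differences were 2.09 percentage points (Newcombe -1.27 to 6.04) for PU.1 and 0.638 (-1.52 to 3.54) for the composite, intervals that include 0. MAF shares were close, with overlapping intervals in both bins (8.32% against 9.13%, and 8.19% against 8.96%). RUNX was at 9.06% against 7.52% in bin 1 and at 7.20% against 9.47% in bin 2. The PU.1-IRF composite was present in 7.76% (6.31 to 9.51%) of members and 3.68% (2.94 to 4.61%) of regions called in all 4 libraries in bin 1, but in 6.20% and 5.56% in bin 2. C/EBP was present in 15.1% against 11.6% in bin 1 and in 21.1% against 14.0% in bin 2. PU.1 was at 12.8% against 9.84% in bin 1, and at 14.6% against 12.6% in bin 2. In bin 3, with 93 members, PU.1 was at 9.68% against 14.8% and the PU.1-IRF composite at 5.38% against 8.28%. The intervals of both bin 3 differences included 0. Of the 198 intergenic WT regions of bin 1 with a PU.1-IRF composite, 42.4% (35.7 to 49.4%) were members, beside 28.7% of all regions of that bin. The share in bin 1 was 39.7% with NF-kB, 34.6% with ISRE, 34.1% with C/EBP and 33.7% with PU.1. It was 29.7% with none of the 13 motifs, 17.8% of the 461 with AP-1 and 10.2% of the 353 with CTCF.

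**Figure D4:**
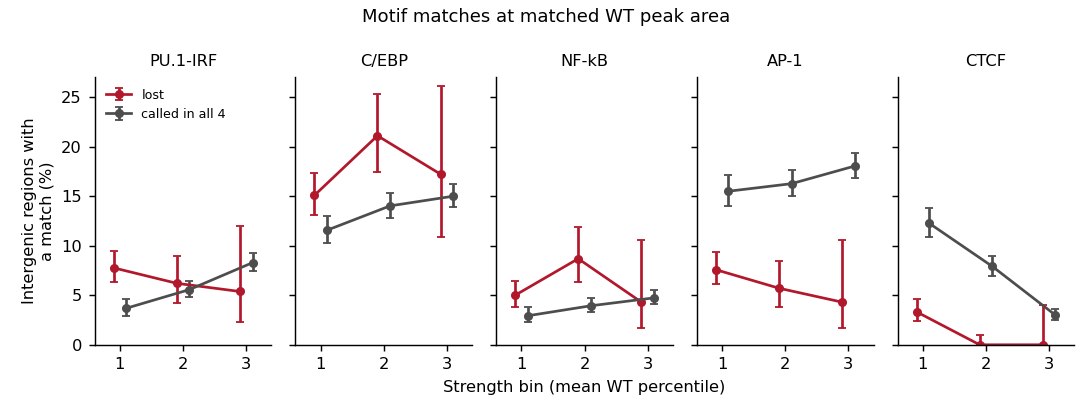
Share of intergenic regions with a match to each motif, for members (lost) and regions called in all 4 libraries, in strength bins 1 to 3 of the mean WT percentile (bin 4, with 3 members, is not drawn). Error bars are Wilson 95% intervals. Members lie below for AP-1 (7.58% against 15.5% in bin 1) and CTCF (3.33% against 12.3%).

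NF-kB matches were somewhat more frequent at members. They were found in 94 members (5.95%, 4.88 to 7.22%), 4.71% of regions called in all 4 libraries, 3.64% of gained regions and 7.36% of lost intronic regions. In bin 2 the shares were 8.68% (6.31 to 11.8%) of members and 3.94% of regions called in all 4 libraries. Of the 175 regions of that bin with an NF-kB match, 20.0% were members, beside 10.7% of all regions of the bin. The difference over all strengths was 1.23 percentage points (0.0991 to 2.56), and 0.462 without cKO replicate 2. NF-kB and C/EBP stood together in 22 members (1.39%, 0.921 to 2.10%) and in 0.572% of regions called in all 4 libraries, with no shared bases in any of these members. Pairs with AP-1 were few. PU.1 and AP-1 were paired in 4 members (0.253%) against 1.64% of regions called in all 4 libraries, and C/EBP and AP-1 in 9 (0.569%) against 2.32%. ISRE, the interferon response element (GAAA and GAAA separated by 2 bases), was found in 5.44% and 4.58%, STAT (TTCNNNGAA) in 7.78% and 6.99%, MEF2 in 0.822% and 1.28%, the E-box (CACGTG) in 2.72% and 4.22%, and CRE (TGACGTCA) in 0.190% and 0.474%. None of the 13 motifs was found in 38.7% of members and 31.7% of regions called in all 4 libraries. Within strength bins the gap was small. Of the intergenic WT regions without any of these motifs, 29.7% were members in bin 1, 11.6% in bin 2 and 3.11% in bin 3. The shares of all regions in these bins were 28.7%, 10.7% and 2.46%. Some consensus sequences overlap, and 6 members had PU.1 and PU.1-IRF matches that shared bases, 4 had AP-1 and MAF, and 2 had PU.1-IRF and ISRE.

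GC content and distance to the nearest TSS differed little, while repeat-masked windows were more frequent at members than at regions called in all 4 libraries. The median GC content of the 201-base windows was 47.3% in members and 47.8% in regions called in all 4 libraries, both with a median of 2 CpG sites. More than 50% of the window was repeat-masked in 8.60% (7.32 to 10.1%) of members, 4.99% of regions called in all 4 libraries and 12.8% of gained regions, and in bin 1 in 8.87% of members against 6.21%. The median distance to the nearest protein-coding TSS was 27.8 kb for members, 29.3 kb for regions called in all 4 libraries and 34.5 kb for gained regions. Members lay upstream of that TSS in 70.8% (68.5 to 73.0%) of cases, against 67.7% and 60.5%. The share of intergenic WT regions lost ranged from 8.63% on chromosome 4 to 13.1% on chromosome 19. Within 5 Mb of the floxed H3f3b gene it was 18.3% (20 of 109, 12.2 to 26.6%), within 5 Mb of H3f3a 12.3% (20 of 162) and within 5 Mb of Lyz2 11.02% (13 of 118). Both genotypes carried the floxed alleles, and only the cKO mice carried the Cre at Lyz2. The part of sequence linked to the engineered alleles was not tested.

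Runs of members were formed as a description, without a comparison value for regions that were not lost. With 50 kb as the limit between neighbours, 525 members (33.2%) were in 226 runs of 2 or more, and 57 runs held 3 or more. The longest runs had 5 members each. One lay upstream of Nrp1, a co-receptor for semaphorins and VEGF, over 87.9 kb (chr8:128266427-128354373) with 3 regions called in all 4 libraries between its members. The other lay near Tbc1d1, a Rab GTPase-activating protein, over 37.0 kb (chr5:64375818-64412800). A run of 4 members near Armc2 and Foxo3 (chr10:42122756-42153177) held no other union region at all. In none of the 14 runs with 4 or more members did a gained region intervene. Gained regions were few everywhere, 1043 of the 21010 autosomal intergenic union regions, and their absence from the runs was not tested.

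Members were spread over many genes, as 1229 genes were nearest to at least 1 member and 26 to 4 or more. The 5 genes with most members, ties taken by strength, are described here. Nrp1 and Zeb2, a zinc finger repressor needed for the identity of tissue macrophages, had 8 members each. Klf6 had 7, Runx1, a haematopoietic master factor, had 6, and Map3k1, a kinase upstream of JNK, had 5. At Runx1 the 6 members made up 42.9% of the 14 intergenic WT regions for which it was the nearest gene, at Map3k1 29.4% of 17, at Klf6 26.9% of 26, and at Nrp1 and Zeb2 22.9% of 35 each. These genes were picked for their number of members, and the share over all intergenic WT regions was 10.5%. The strongest Nrp1 member (chr8:128272819-128273493), 86.1 kb upstream, reached percentiles of 55.0 in WT replicate 1 and 60.6 in replicate 2. The weakest (chr8:128266427-128266687) had 1.14 and 15.4. Runx1 members stretched from 98.2 to 382 kb from the TSS, led by chr16:93141979-93142586 at 47.8 and 56.7. The Zeb2 members were as far as 1535 kb away, and the nearest, 9.05 kb upstream at chr2:45126154-45126739, had percentiles of 22.4 and 32.9 and matched AP-1, RUNX, MAF and STAT.

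Gene lists were read by their counts. Of the 5534 protein-coding genes with an intergenic WT region within 100 kb for which they were the nearest gene, 1061 (19.2%) had a member. Among macrophage transcription factors 14 of 39 genes had one (35.9%, 22.7 to 51.6%). However, these genes had many intergenic regions, and 9.84% of their 193 regions were lost, beside 10.3% of the 12185 regions of all genes. Adhesion and leukocyte activation genes had a member at 9 of 30, with 10.9% of 110 regions lost, and cytokines and chemokines at 7 of 24, with 12.5% of 72 regions. Cell cycle and replication genes had one at 5 of 20 (12.5% of 48 regions), lipid and lysosome genes at 6 of 27 (8.24% of 85) and myeloid surface and growth factor receptors at 5 of 28 (8.41% of 107). For interferon-stimulated genes it was 1 of 21, Gbp2, with 2.56% of 39 regions (0.454 to 13.2%). Each list's interval for regions lost included the share over all genes.

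Among the listed genes, 15 had 2 or more members within 100 kb. These genes were picked for that number, and 10.3% of the intergenic WT regions of all genes were lost. Over all genes, 238 were nearest to 2 or more members at any distance. Gpnmb, a transmembrane glycoprotein of lysosome-rich macrophages, had 3 of its 6 intergenic WT regions lost. They lay 8.39, 13.8 and 15.4 kb upstream, with WT percentiles between 20.6 and 43.7. The remaining genes had 2 each, out of 3 such regions at Ccl9 and Mcm5 and up to 14 at Bach1. They were the transcription factors Bach1, Bhlhe40, Bhlhe41, Irf4 and Rel (the c-Rel subunit of NF-kB), the chemokine Ccl9, the chemokine receptor Ccr1, the cytokine Il10 and the receptor for macrophage colony-stimulating factor Csf1r. The others were the signalling enzymes Pik3cg and Syk, the actin regulator Coro1a, the lysosomal protease Ctsd and the replication helicase subunit Mcm5. The strongest of these members was near Rel, 59.5 kb upstream (chr11:23830320-23830683), with percentiles of 50.1 and 49.95. The Il10 member printed above lay 4.30 kb upstream of the TSS, with percentiles of 42.1 and 47.4. Both Csf1r members were weak, at 12.4 and 23.4 for the farther and 15.3 and 22.6 for the nearer. The Irf4 member 4.53 kb upstream (chr13:30744501-30744887), with PU.1 and AP-1 matches, had percentiles of 9.70 and 1.16.

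Sites that stayed open near members tended to be lower in cKO. These come from the same libraries that chose the members, so they are given as values without a test. Over the 1643 autosomal regions called in all 4 libraries with a centre within 10 kb of a member's, the median change of the percentile, mean of cKO less mean of WT, was -4.28 points, while it was -1.13 for all 43706 such regions. Both cKO values were below both WT values in 49.6% of the neighbours and 35.5% of all, and above both in 11.9% and 22.3%. Within 2 kb the median was -7.85 (n = 292), and within 50 kb -3.07 (n = 6021). Near gained intergenic regions it was 1.65 (n = 876). Within each replicate number the neighbours' median was -4.41 and -4.21. By class it was -5.69 for intergenic, -3.36 for intronic, -2.01 for exonic and -1.71 for promoter neighbours, against -0.448 for all promoters. The neighbours' median was -2.12 without WT replicate 2 and -6.43 without cKO replicate 2, while its distance from the median of all regions stayed between -3.24 and -2.37 with any single library left out. A percentile depends on the length of its list, and each WT list was longer than the cKO list of the same number. With equal list lengths the median was 0.0592 for all regions and -2.84 for the neighbours. Without WT replicate 2 the median of all regions was 0.253. The shares of regions that were lower or higher are given for the full lists only.

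**Figure D5:**
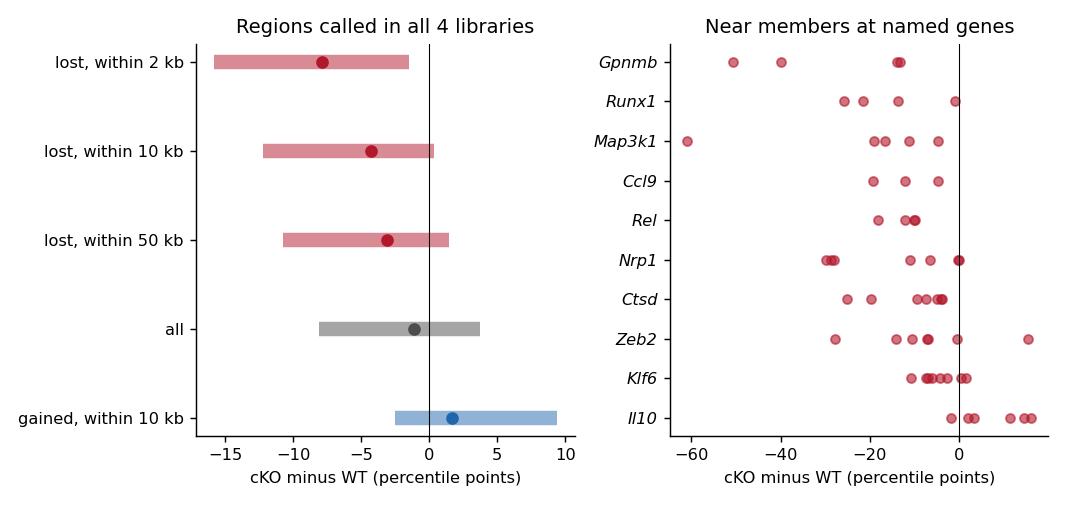
Change of the percentile of the peak area, mean of cKO less mean of WT, for regions called in all 4 libraries. Left, regions near members (lost), near gained regions and all, as medians with the middle 50%; right, each region within 10 kb of a member at 10 genes. The median was -7.85 within 2 kb, -4.28 within 10 kb and -3.07 within 50 kb of a member, and -1.13 over all.

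Single loci showed how far this went, and the sites given here were chosen after their values were seen. The mean percentile was lower in cKO at 72.6% of all 1643 neighbours within 10 kb, and at 58.3% of all 43706 regions. At Gpnmb all 4 neighbours were lower in cKO. A region 5.19 kb upstream (chr6:49031103-49031744) went from WT percentiles of 70.6 and 74.6 to 16.5 and 27.3. Another, 23.6 kb upstream (chr6:49012198-49013764), went from 92.7 and 92.6 to 45.1 and 60.4. In neither did the WT and cKO values overlap, and the gene's own TSS region (chr6:49035633-49037984) was at 93.3 and 97.2 against 80.9 and 82.9. At Map3k1 all 5 neighbours were lower, and the region at chr13:111944087-111944633, beside a member, went from 62.4 and 70.8 to 2.70 and 8.77. At Runx1 all 4 were lower by their means, with a median of -17.7. However, WT and cKO values overlapped at chr16:93028499-93029124 (a change of -1.03) and chr16:93031492-93032331. At Rel all 4 were lower, with a median of -11.2, and values overlapped at chr11:23820846-23821254. At Nrp1 all 7 neighbours were lower, with a median of -11.1, but the promoter region was near the top of every list, from 99.5 to 99.95. Values overlapped at the Nrp1 neighbours chr8:128302368-128302662 (a change of -0.119) and chr8:128363143-128363579. Some loci went the other way. The neighbours' median was 2.71 at Bach1 (n = 2) and 7.31 at Il10 (n = 6). Single neighbours were higher in cKO by 15.3 points at Zeb2 and 12.8 points at Ccr1, but at both sites the WT and cKO values overlapped. A region 6.15 kb from the Il10 TSS (chr1:131025669-131026319) went from WT percentiles of 54.1 and 60.5 to 70.1 and 76.7, and another at 18.4 kb (chr1:131037988-131038561) from 66.1 and 73.5 to 82.8 and 85.7. The WT values of the Il10 promoter region, 49.8 and 59.0, overlapped the cKO values of 53.6 and 59.0, so that the locus held its 2 lost members beside sites that were higher in cKO.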

How the data were processed

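ATAC-seq peak lists of 2 WT and 2 cKO BMDM libraries were used, grouped by sample title. The authors aligned paired reads to mm10 with Bowtie2 2.5.1 and called peaks per library with Genrich at default settings. Read filters, duplicate removal and the Tn5 shift are not given in the sources used here. The deposited peak signal is Genrich's area under the significance curve, and the deposited −log10 p-value at the summit and the summit offset were also read. Depth is unknown, so no interval covers sequencing error, and the number of libraries limits precision.

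Peaks were merged in Python 3.11.15 (pandas 2.3.3, numpy 2.4.6). The merging gave the regions of bedtools 2.31.1, and merging, calls and motif search were tested on simulated data. Coordinates are 1-based mm10, genes are from GENCODE M21 (basic), and sequence is from RefSeq GRCm38. Motifs were consensus matches on both strands within 100 bp of the top peak's summit, the WT summit for members and the cKO summit for gained regions. Intervals are Wilson or Newcombe 95% intervals. No test was run, as regions are not replicates. Members, lists and motifs were chosen with earlier results of these data known. Named are the 12 strongest members, the 5 genes nearest to most members (ties by strength), listed genes with 2 or more members, and those at the calling limit. Alternatives covered peak threshold, list length, overlap, annotation, windows and leaving out each library. The result for 1 gene is not reported here.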

Additional observations from a re-analysis of the deposited data

How the results depend on the processing

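The member count of 1581 stayed between 1373 and 1915 with equal list lengths, a cover of 50%, wider promoters, protein-coding genes, widened summits and, both chosen after seeing the data, the comprehensive annotation and no cKO peak within 1 kb. It was 786 with peaks above the median area, and 1678 to 3135 with a library left out. The share of 10.5% became 12.3% with peaks above the median area, 12.4% with a cover of 50%, and 11.1 to 18.2% with a library left out. The AP-1 difference became -13.3 points above the median area, -7.96 within 50 bp of the summit, and -7.91 and -13.7 in strength bins 1 and 3. The CTCF difference became -0.814 above the median area, -1.25 within 50 bp, -8.93 and -7.91 in strength bins 1 and 2, and -2.82 to -0.988 with a library left out. NF-kB turned to -0.433 points in strength bin 3, on 93 members. The neighbours' median became -2.84 with equal list lengths, -7.85 within 2 kb, and -6.43 to -2.12 with a library left out. Less the median of all regions it was -4.81 above the median area, -6.72 within 2 kb and -1.94 within 50 kb, against -3.14. The cause of each move was not tested. The neighbour alternatives other than distance were added after seeing the data. Of 77 motif differences under the alternatives, 55 stayed within the interval of the reported difference. GC content, TSS distance and WT strength moved by less than 1.5 times, and the 8 gene list shares stayed within their intervals at 50 kb. No paired test was run, as no result came from a test, and same-numbered libraries were set side by side as values. Depth is unknown, and lost means below an area of 200, so weaker signal cannot be told apart from no signal.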
